A study of Bos taurus with 18 samples.

Results

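Cells from the milk of 6 cows with endometritis were set against cells from the milk of 6 healthy cows, with 1 expression array per cow. These 12 arrays were taken by their labels from the 18 of the study, which also holds 6 arrays of cows with mastitis, and the comparison covered all 24016 probe sets that are not array controls. In endometritis the inner wall of the uterus is inflamed, so the diseased organ lies away from the udder. The labels give the cows with endometritis lactations 1 to 8 and 10 to 220 days after calving, with no age. They give the healthy cows an age of 2 to 4 years, lactations 1 to 3 except for one cow each in lactations 4 and 8, a count below 100000 cells/ml in milk, and for most of them 10 to 100 days after calving. Age, lactation number and stage of lactation can therefore differ between the groups, and the age range cannot hold together with 8 lactations. No genotype, breed or treatment is given for either group, and animals came from both farms and clinics. The titles of all 12 samples carry the word OnFarm.

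Milk somatic cells are a mixture of immune cells (macrophages, neutrophils and lymphocytes) and epithelial cells that detach from the udder wall. The epithelial cells make casein and lactose and carry much secretory machinery, macrophages and lymphocytes patrol the healthy udder, and neutrophils enter it in large numbers when bacteria do. Uterine inflammation can reach the udder through the blood, as cytokines, acute phase signals and a changed metabolic state, and the comparison asks whether milk cells carry a trace of it.

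Values are log2 normalized intensities, so a difference of 1 is a 2-fold difference. Differences are endometritis minus healthy, given with their standard error (SE) from limma, and adjusted p-values are those of limma with Benjamini-Hochberg adjustment over all probe sets unless stated otherwise. The deposited values ran from 2.43 to 14.2 with a median of 2.55, and values near that median lie at the floor of the scale. The labelled cell source matched its markers. The milk protein genes CSN2, CSN3 and LALBA averaged 13.1 to 13.8 on endometritis arrays and 13.3 to 13.9 on healthy arrays. CD68, a lysosomal protein of macrophages, averaged 9.72 on endometritis arrays and 9.37 on healthy arrays, and the red cell genes HBB and ALAS2 stood at the floor in both groups.

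Of the 24016 probe sets, 0 passed at an adjusted p under 0.05 (0% called), 1 passed under 0.1 (0.00416% called), and 1047 had an unadjusted p under 0.05 (4.36% called, against 1200.8 that this threshold passes on average when nothing differs). That 1 probe set measures ASB11. With 1 probe set for each of the 9155 named genes and adjustment over genes, ASB11 was the 1 gene called (0.0109% called). Differences were small across the array: 90.3% of genes lay within 0.5 log2 units of zero, 24 were higher by more than 1 and 58 lower by more than 1, and the median gene stood at 0. Above zero lay 49.4% of probe sets, but this share was 26.4% when each array was centred on its brighter probe sets and 89.0% after scaling to the hybridisation controls, so the direction of small shifts across the whole array depended on the scaling. At an unadjusted p under 0.05, 328 genes were lower (3.58% called) and 170 higher (1.86% called), 5.44% in either direction. Groups that did not overlap were seen for 49 probe sets (0.204% called) and 27 genes (0.295% called). The 6 endometritis values lay wholly below the 6 healthy values for 22 genes (0.24% called) and wholly above them for 5 genes (0.0546% called).

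ASB11, the substrate-binding part of a ubiquitin ligase known mainly from skeletal muscle, showed the largest difference of any named gene. Its values were 3.76, 3.76, 3.63, 3.74, 3.67 and 3.74 on endometritis arrays, against 8.07, 8.35, 7.29, 9.17, 7.16 and 4.65 on healthy arrays. The groups did not overlap, the endometritis arrays lay within 0.2 of each other, and healthy 6 was the lowest healthy array. The difference was -3.73 ± 0.52 (SE, n = 6 each, 95% interval -4.83 to -2.63), a 13.3-fold lower level in endometritis, with an adjusted p of 0.0566 over probe sets and 0.0196 over genes. Mastitis arrays averaged 3.60, so the healthy arrays were the ones that stood apart. The call rests on the spread shared with the mastitis arrays: with the 12 arrays alone the adjusted p over probe sets was 0.518. Leaving out 1 array in turn gave an adjusted p over probe sets between 4.48e-06, without healthy 6, and 0.248, without healthy 1, and a difference between -4.29 and -3.39. At the gene level the call was lost in 10 of the 12 cases, all but those without healthy 4 or healthy 6.

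A few other genes known from muscle or heart went the same way without passing. These genes were placed in the list of striated muscle genes, or named, with earlier results of these arrays known, so their direction is no separate evidence. CRYAB, a small heat shock protein of muscle and lens, read 4.26, 3.02, 3.88, 3.72, 3.33 and 2.73 in endometritis, against 6.66, 4.24, 5.03, 4.996, 6.30 and 4.32 in healthy (difference -1.77 ± 0.38, limma adjusted p = 0.596). RRAD, a small GTPase that restrains calcium channels in heart and skeletal muscle, averaged 3.41 ± 0.55 in endometritis and 5.35 ± 1.28 in healthy (SD, n = 6 each; adjusted p = 0.833 by limma), with healthy 2 and 6 within the endometritis range. CHCHD10, a protein of the mitochondrial intermembrane space, averaged 3.03 ± 0.50 in endometritis and 4.37 ± 0.51 in healthy, a difference of -1.34 ± 0.25. For CRYAB and CHCHD10 a single endometritis array reached into the healthy range. A further pair, chosen after their values were seen, were MYBPC1, a myosin-binding protein of slow muscle, at -1.73 ± 0.58, and TMOD4, a muscle tropomodulin, at -1.38 ± 0.52. Both were lowest in their groups on endometritis 5 (2.43 and 2.67) and healthy 6 (2.63 and 3.00). These arrays also had the lowest scores of mammary secretory genes in their groups, -2.14 and -1.17 relative to the healthy mean. Mastitis arrays differed from healthy by -3.03 and -2.42. A link to cell composition was not tested. The defining muscle genes ACTA1, skeletal actin, and MYH1, a fast myosin, stood at the floor in both groups (2.46 and 2.46 in endometritis, against 2.45 and 2.43 in healthy). The other 28 measured members of the muscle list had a median difference of -0.01, with 1 lower and 1 higher at an unadjusted p under 0.05 (3.57% each, against 3.58% and 1.86% of all genes).

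**Figure D1:**
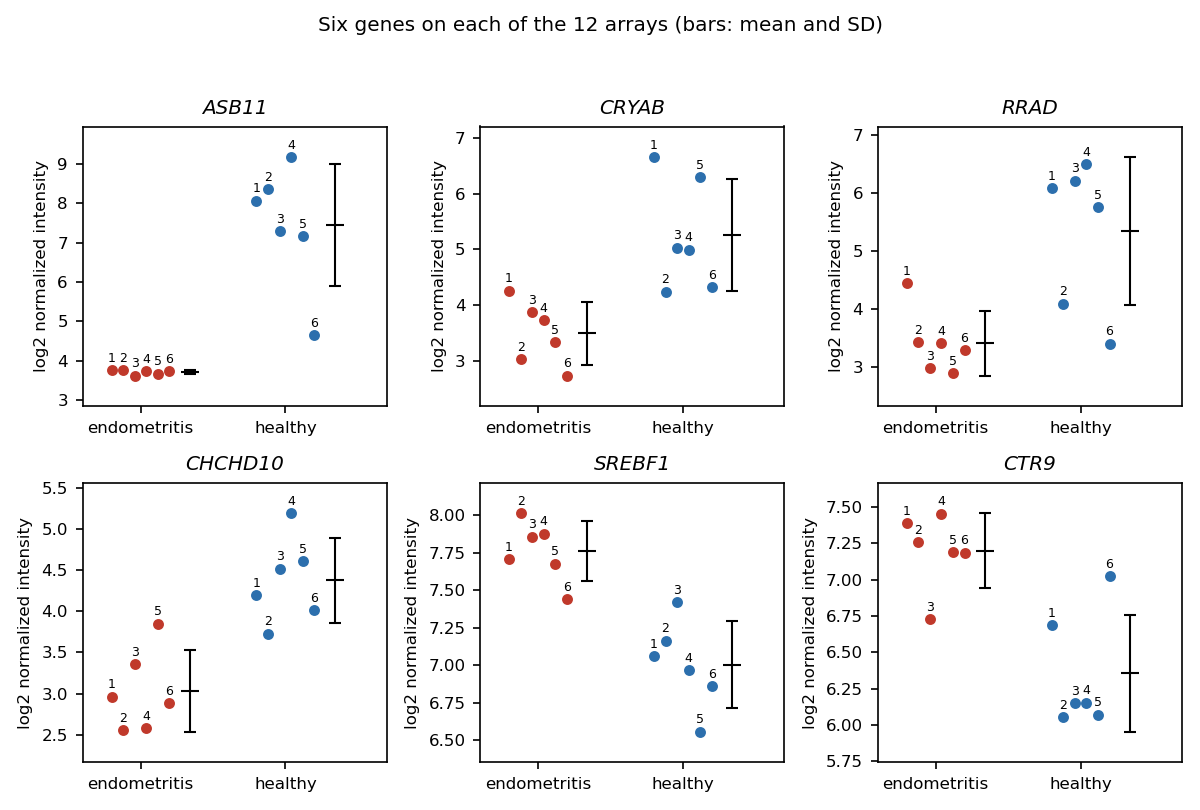
Log2 normalized intensity of ASB11, CRYAB, RRAD, CHCHD10, SREBF1 and CTR9 on each array (numbered points; endometritis left, healthy right; bars: mean and SD, n = 6 each). ASB11 and SREBF1 separate the groups on all 12 arrays, while healthy 6 lies nearest the endometritis arrays for ASB11, RRAD and CTR9.

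Most genes of oxidative phosphorylation read lower in endometritis, though none passed after adjustment. This is the set of protein complexes in the inner mitochondrial membrane that pass electrons to oxygen and use the resulting proton gradient to make ATP. Of the 74 measured members, 70 lay below zero, against 48.5% of all genes, and their median difference was -0.50, against 0 for all genes. At an unadjusted p under 0.05, 28 members were lower (37.8%) and 0 higher, against 3.58% and 1.86% of all genes. Because these genes are bright, genes with a mean above 6 are the closer background: of those 1421, 5.21% were lower at that threshold and 2.32% higher. For 40 of the 74 members all 6 endometritis arrays lay below the healthy mean (54.1%), against 9.64% of genes with a mean above 6. The groups did not overlap for 6 of the 74 members, all lower in endometritis. Among the 1421 genes with a mean above 6, 11 were lower without overlap.

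Most members lay below zero in all 5 complexes. Complex I, which takes electrons from NADH, had 35 of 37 subunits below zero (median -0.55, 17 lower at an unadjusted p under 0.05). NDUFA1, an accessory subunit, read 9.35, 9.28, 9.29, 8.999, 8.95 and 9.09 in endometritis, against 9.29, 9.79, 10.13, 10.01, 10.24 and 9.28 in healthy (difference -0.63 ± 0.19, limma adjusted p = 0.925). Healthy 1 and healthy 6 lay within the endometritis range and the other 4 healthy arrays above it. NDUFA6 differed by -0.60 ± 0.17, and NDUFC1, chosen after its values were seen, averaged 6.70 ± 0.38 in endometritis and 7.45 ± 0.28 in healthy (SD, n = 6 each) without overlap. Complex II, which links the chain to the citric acid cycle, had all 4 subunits below zero, with a median of -0.26 and 0 at an unadjusted p under 0.05. In complex III all 9 measured subunits lay below zero, 4 of them at that threshold. UQCRQ differed by -0.59 ± 0.17, and UQCRB, chosen after its values were seen, by -0.76 ± 0.24 with no overlap. Complex IV, the oxidase, had all 9 below zero. COX7A2, one of its small subunits, read 8.82, 8.46, 8.72, 8.30, 8.88 and 8.76 in endometritis, against 9.04, 9.29, 9.40, 9.43, 9.86 and 9.20 in healthy (-0.71 ± 0.19, limma adjusted p = 0.911), and every healthy array exceeded every endometritis array. COX8A did the same (8.58 ± 0.09 in endometritis and 9.11 ± 0.41 in healthy; chosen after its values were seen). ATP synthase had 13 of 15 subunits below zero, and ATP5PF (-0.82 ± 0.28) and ATP5MG (-0.43 ± 0.20), both chosen after their values were seen, did not overlap.

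Genes of the mitochondrial ribosome and of protein import into the mitochondrion lay mostly below zero too, with none passing after adjustment. The mitochondrial ribosome translates the few chain subunits encoded in mitochondrial DNA, and the import machinery brings in the rest. Of 82 members, 73 lay below zero (89%, against 48.5% of all genes) with a median of -0.33. At an unadjusted p under 0.05, 10 were lower (12.2%) and 0 higher, against 5.21% and 2.32% of genes with a mean above 6. All 41 proteins of the large mitochondrial ribosomal subunit lay below zero (median -0.36), as did 19 of 24 of the small subunit (-0.24) and 13 of 17 of the import machinery (-0.27). Of the import genes 1 was lower at that threshold (5.88%), a share near that background. MRPS16, of the small subunit, averaged 4.56 ± 0.24 in endometritis and 5.29 ± 0.46 in healthy (SD, n = 6 each; difference -0.73 ± 0.22, limma adjusted p = 0.925). MRPL21 read 5.23, 4.81, 5.11, 5.01, 5.37 and 5.23 in endometritis, against 5.52, 5.38, 5.74, 5.38, 5.67 and 5.81 in healthy, and MRPS17 likewise did not overlap (-0.38 ± 0.15). TIMM17B, of the inner membrane translocase, differed by -0.33 ± 0.10. The 64 proteins of the cytosolic ribosome had a median of -0.05, with 1 lower at an unadjusted p under 0.05 (RPS28, -0.63 ± 0.26) and 0 higher. Its median was positive under 1 scaling, at 0.11 after scaling to the hybridisation controls.

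Averaged over its members on each array and set to the healthy mean, the oxidative phosphorylation score was -0.26, -0.72, -0.50, -0.68, -0.17 and -0.36 in endometritis, against -0.28, 0.01, -0.03, -0.01, 0.32 and -0.01 in healthy. All 6 endometritis arrays lay below the healthy mean, endometritis 2 and 4 were the lowest and healthy 5 the highest. Healthy 1 lay among the endometritis arrays, so the scores overlapped. Mastitis arrays lay further down, with a median difference from healthy of -1.37 over the 74 genes and -0.83 over the 82; both comparisons use the same healthy arrays. Leaving out 1 array in turn kept the oxidative phosphorylation median between -0.55 and -0.41, and 67 to 70 members below zero. The median of the mitochondrial ribosome and import was -0.21 without healthy 5 and -0.38 without healthy 1. The number lower at an unadjusted p under 0.05 was less steady: 15 without healthy 5, 17 without endometritis 2, 18 without endometritis 4 and 18 without healthy 4. For the mitochondrial ribosome and import it was 3 without endometritis 2, 4 without healthy 5, 5 without endometritis 4, 6 without healthy 4, 16 without healthy 6 and 17 without healthy 1. The share of all genes lower at that threshold moved too, to 2.23% without healthy 5, 2.2% without endometritis 2, 2.33% without endometritis 4, 2.5% without healthy 4, 6.28% without healthy 6 and 5.14% without healthy 1.

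One measure of RNA quality was examined beside this result. The signal of the 3′ GAPDH control minus that of the 5′ one, which grows as RNA is degraded or copied incompletely, was 0.58 ± 0.25 in endometritis and 0.88 ± 0.40 in healthy (SD, n = 6 each; exact two-sided permutation p = 0.143, adjusted 0.652), so the groups did not differ past the threshold. With it as a covariate the oxidative phosphorylation median was -0.39, with 69 members below zero and 12 lower at an unadjusted p under 0.05; the share of all genes lower at that threshold was then 1.75%. Scaling to the hybridisation controls moved the median of all genes to 0.16; the oxidative phosphorylation median was then -0.33, with 64 members below zero and 1 lower at an unadjusted p under 0.05, against 0.36% of all genes. The median of the mitochondrial ribosome and import was -0.22 with the GAPDH covariate and -0.17 under that scaling. With the mammary secretory and neutrophil scores as covariates the oxidative phosphorylation median was -0.64, with 48 lower at that threshold against 5.88% of all genes, and with the macrophage and T cell scores, added after the data were seen, it was -0.57. Among arrays whose title carries a number above 120, which hold 5 of the endometritis and 3 of the healthy arrays, it was -0.42 with 67 below zero (also added after the data were seen). In RNA from mixed cells, fewer cells of a type and less RNA per cell cannot be told apart.

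**Figure D2:**
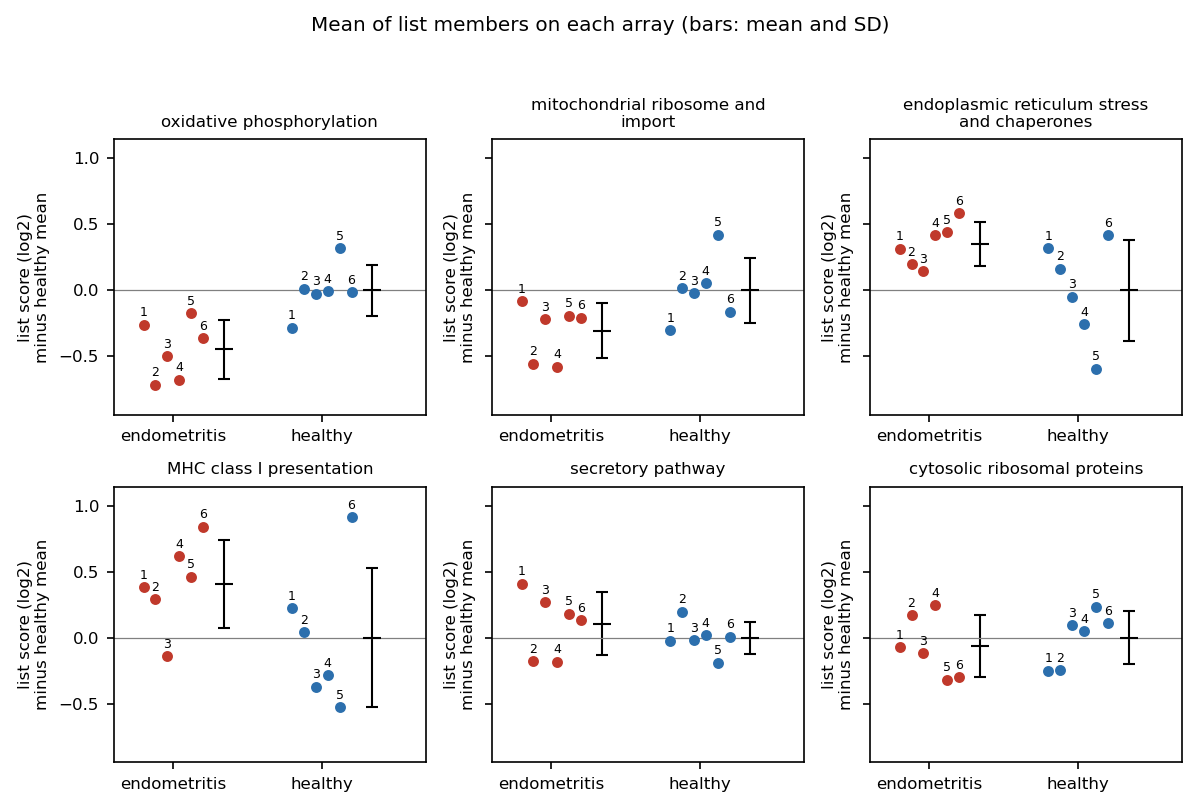
Mean of the members of 6 gene lists on each array, in log2 units relative to the healthy mean (numbered points; endometritis left, healthy right; bars: mean and SD, n = 6 each). All 6 endometritis arrays lie below the healthy mean for both mitochondrial lists and above it for endoplasmic reticulum chaperones, and in no panel do the groups separate fully.

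Genes of endoplasmic reticulum stress and protein folding lay mostly above zero, without any passing after adjustment. Of 22 members 18 lay above zero (81.8%, against 48.9% of all genes), with a median of 0.41; 2 were higher at an unadjusted p under 0.05 (9.09%, against 1.86% of all genes) and 0 lower. The difference largest in size was a negative one, of -1.25 for DNAJC12, a DnaJ co-chaperone, and the stress-response transcription factors ATF4 and DDIT3 stood at -0.19 and -0.03. For 8 of them all 6 endometritis arrays lay above the healthy mean (36.4%), against 2.96% of genes with a mean above 6. PDIA4, a disulfide isomerase, read 5.41, 5.81, 5.29, 6.00, 5.77 and 5.42 in endometritis, against 5.05, 4.67, 5.01, 4.20, 3.59 and 5.45 in healthy (difference 0.96 ± 0.42, limma adjusted p = 0.925). Only healthy 6 reached the endometritis range, and 2 of the 3 PDIA4 probe sets had this direction. SEL1L, of the pathway that removes misfolded proteins, differed by 0.88 ± 0.36. HSP90B1 and CALR, a chaperone and a calcium-binding chaperone of the same compartment, differed by 0.99 ± 0.48 and 0.80 ± 0.40, with intervals that included zero. Healthy arrays spread widely on this list, from -0.59 in healthy 5 to 0.42 in healthy 6, while endometritis arrays ran from 0.15 to 0.59. Without healthy 5 the median was 0.23.

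Genes for presenting peptides on MHC class I lay above zero in 16 of 17 cases (94.1%, against 48.9% of all genes), with a median of 0.40. The 1 member below zero was BOLA, the class I heavy chain itself (-0.45, interval -3.44 to 2.54). Over the alternative settings that median ran from 0.13 to 0.57, and it was 0.29 without healthy 5. At an unadjusted p under 0.05, 1 member was higher (5.88%, against 1.86% of all genes) and 0 lower. CALR, CANX and PDIA3, which are 3 of the 4 members with the largest positive differences, also belong to the endoplasmic reticulum list, so the lists are not separate. PSMB8, a subunit of the immunoproteasome that cuts peptides for loading, averaged 4.66 ± 0.25 in endometritis and 4.07 ± 0.54 in healthy (SD, n = 6 each), a difference of 0.58 ± 0.27. B2M, the light chain, differed by 0.40 ± 0.20 and TAPBP, which holds the peptide loader in place, by 0.59 ± 0.30, both with intervals that included zero. Healthy 6 had the highest score of all 12 arrays and endometritis 3 lay below the healthy mean. Mastitis arrays had a median difference from the same healthy arrays of 1.52 over these genes. The secretory pathway was mixed: its 51 members had a median of 0.18, with 3 higher and 2 lower at an unadjusted p under 0.05 (5.88% and 3.92%, against 1.86% and 3.58% of all genes), and a median of 0.08 without healthy 5. COPB1, COPA and SEC63, 2 coat proteins of transport vesicles and a partner of the translocon, were among those higher (0.61 ± 0.23, 0.53 ± 0.23 and 0.61 ± 0.25; 1 of the 2 COPA probe sets had this direction), and SEC61G, a small translocon subunit, among those lower (-0.48 ± 0.22).

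**Figure D3:**
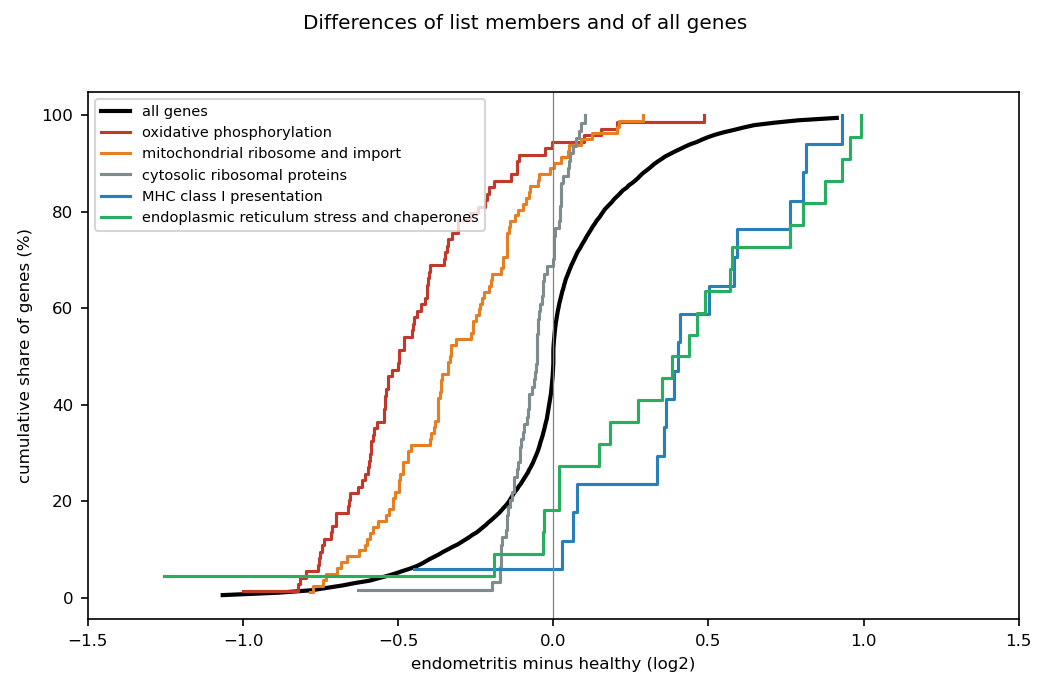
Cumulative share of genes (%) by difference, endometritis minus healthy (log2), for all 9155 genes and 5 gene lists. Both mitochondrial curves lie left of all genes, with medians of -0.50 and -0.33; the MHC class I and endoplasmic reticulum curves lie right, with medians of 0.40 and 0.41.

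Single genes with small unadjusted p-values are given next; they form no tested group. CTR9, a scaffold of the PAF1 complex that travels with RNA polymerase II, read 7.39, 7.26, 6.73, 7.45, 7.19 and 7.18 in endometritis, against 6.69, 6.05, 6.15, 6.15, 6.07 and 7.03 in healthy (0.84 ± 0.18, limma adjusted p = 0.596). Healthy 6 was the 1 healthy array above any endometritis array. POLR2B, the second largest subunit of that polymerase, differed by 0.69 ± 0.19, and SNRNP200, a spliceosomal helicase, by 0.72 ± 0.19. SF3B3, of the same machinery, and EIF3A, of the translation initiation factor eIF3, differed by 0.63 ± 0.18 and 0.67 ± 0.19. GTPBP4, needed to assemble the large ribosomal subunit, differed by 0.72 ± 0.17 and UBR2, a ubiquitin ligase, by 0.77 ± 0.21. POLR2J, a small subunit of RNA polymerase II, went the other way: it averaged 4.71 ± 0.19 in endometritis and 5.37 ± 0.25 in healthy (SD, n = 6 each), without overlap. CENPX, a small histone-fold protein, differed by -0.74 ± 0.18. Among the 45 spliceosome and RNA processing genes, 28 lay above zero (62.2%, against 52.2% of genes with a mean above the median of all values) with a median of 0.12; 3 were higher at an unadjusted p under 0.05 (6.67%, against 2.29% of the same genes) and 0 lower.

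SREBF1, the transcription factor that drives fatty acid synthesis, read 7.71, 8.01, 7.86, 7.88, 7.67 and 7.44 in endometritis, against 7.06, 7.16, 7.42, 6.97, 6.55 and 6.86 in healthy. Every endometritis array exceeded every healthy array (0.76 ± 0.18, limma adjusted p = 0.833), and 3 of its 4 probe sets had this direction. The difference was 0.21 with the smallest alternative setting and 0.92 with the largest. The milk fat and lipid transport list as a whole stood at a median of 0.02, with 2 of 37 higher at an unadjusted p under 0.05 (5.41%, against 1.86% of all genes) and 0 lower; the other was ACSL3, which activates fatty acids (0.55 ± 0.20). UGCG, which makes glucosylceramide, differed by 1.34 ± 0.36. AKAP5, an anchoring protein, had the largest positive difference, 2.09 ± 0.77, and no overlap; it was chosen after its values were seen. It read 7.83 and 8.00 on endometritis 2 and 4, against 4.25 to 4.48 on the other endometritis arrays and 2.47 to 4.13 on healthy arrays.

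Endometritis 2 and 4 also carried the T cell genes. Relative to the healthy mean, the T cell score was 1.62 on endometritis 2 and 2.04 on endometritis 4, and between -0.46 and 0.03 on the other 4 endometritis arrays; healthy arrays ran from -1.02 to 1.19, with healthy 6 the highest. All 15 T cell markers lay above zero, against 48.9% of all genes, with a median of 0.48, but 0 had an unadjusted p under 0.05. Of these markers 2 stood at or under the median of all values on all 12 arrays. The T cell median was 0.04 without endometritis 4. CD3G, a chain of the T cell receptor complex, read 8.24 and 9.14 on those arrays, against 4.79 to 5.77 on the other endometritis arrays and 3.16 to 7.48 on healthy arrays. CD8A, of cytotoxic T cells, differed by 0.84 ± 0.70 and CD3E by 0.32 ± 0.55. NK and cytotoxic granule genes lay above zero in all 10 cases, against 48.9% of all genes, with a median of 0.18. KLRK1, an activating receptor, was among 2 higher at an unadjusted p under 0.05 (0.75 ± 0.28), 20% of these genes against 1.86% of all. The other was KLRB1, with a difference of only 0.07 ± 0.02. KLRK1 itself was low on healthy arrays, at 3.29 on healthy 6 and at most 2.73 on the rest. Of the 10 genes, 6 had a mean above the median of all values. The arrays endometritis 2 and 4 also had the lowest oxidative phosphorylation scores, and the part of cell composition in that result was not tested beyond the covariate values above.

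The other cell types varied from cow to cow within both groups. The macrophage score ran from -1.60 to 2.19 in endometritis and from -1.58 to 1.29 in healthy: endometritis 5 and 6 and healthy 1 and 6 were high, endometritis 3 and healthy 3 low. The median of its 18 markers was 0.30, and -0.05 without endometritis 5. CD68 differed by 0.36 ± 0.78 and CD14, a co-receptor for bacterial lipopolysaccharide, by 0.32 ± 0.67. Neutrophil markers had a median of -0.22 (14 genes, 0 at an unadjusted p under 0.05; -0.03 without healthy 1); mastitis arrays stood 3.12 above the same healthy arrays. CXCR1, the neutrophil receptor for interleukin 8, read 2.81, 2.90, 4.67, 4.74, 3.73 and 8.28 in endometritis, against 7.48, 5.20, 4.58, 4.84, 4.55 and 3.77 in healthy. One array in each group, endometritis 6 and healthy 1, was high. S100A8 and S100A9, calcium-binding proteins abundant in neutrophils, differed by -0.90 ± 0.67 and -0.77 ± 0.77, and by -0.52 and -0.41 without healthy 1. Mammary secretory genes had a median of -0.17, with 25 of 32 below zero (78.1%, against 48.5% of all genes) and 0 at an unadjusted p under 0.05. Their median was 0.03 without endometritis 5. ELF5, the transcription factor of milk-secreting cells, read 12.08, 11.29, 11.99, 9.85, 6.13 and 10.93 in endometritis, against 11.11, 12.09, 11.78, 12.38, 12.48 and 8.93 in healthy. Endometritis 5 was far below the rest, and it was also the lowest for LALBA, CSN2 and CSN3. Luminal epithelial genes lay below zero in 18 of 20 cases (90%, against 48.5% of all genes), with a median of -0.30, and -0.06 without endometritis 5. In the mammary secretory and luminal lists, 2 members each stood at or under the median of all values on all 12 arrays. CLDN4, a tight junction protein, differed by -0.53 ± 0.19. The keratins KRT7 and KRT19 differed by -0.78 ± 0.38 and -0.95 ± 0.69, KRT19 by -0.35 without endometritis 5.

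**Figure D4:**
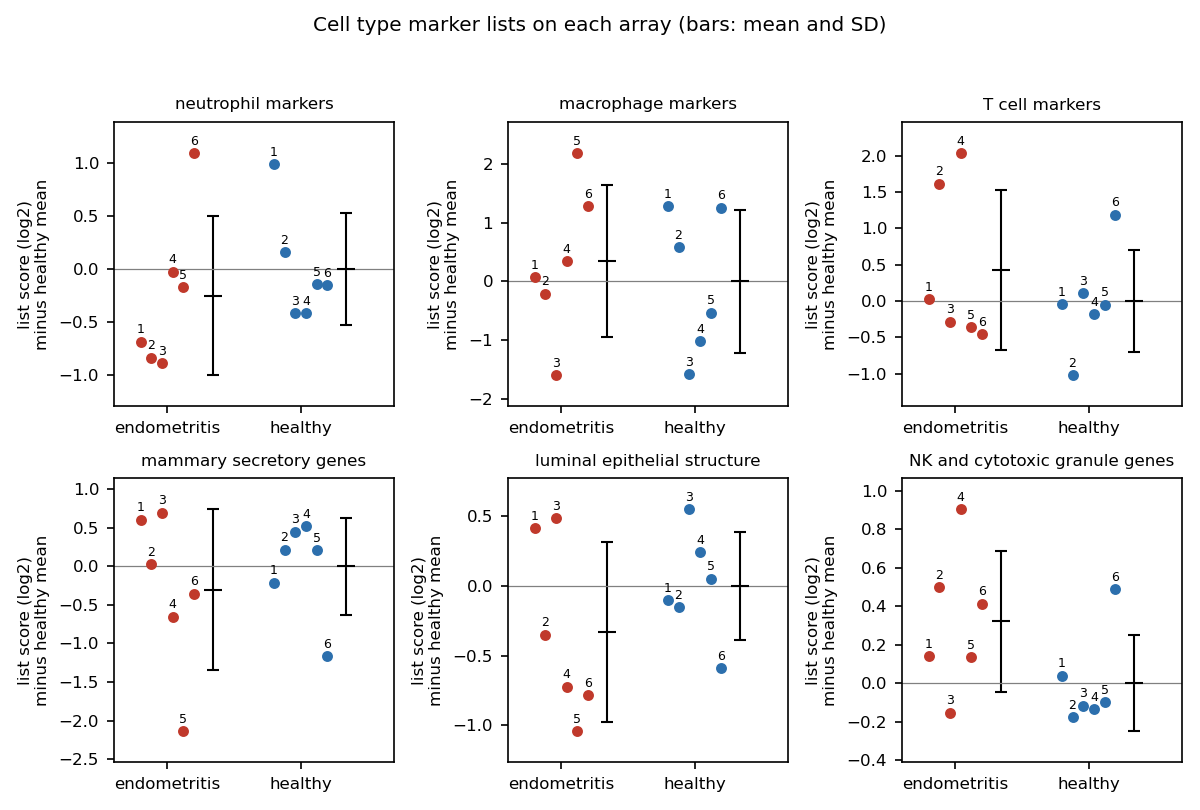
Scores of 6 cell type marker lists on each array, in log2 units relative to the healthy mean (numbered points; endometritis left, healthy right; bars: mean and SD, n = 6 each). T cell scores are highest on endometritis 2 and 4, the mammary secretory score is lowest on endometritis 5, and macrophage scores are low on endometritis 3 and healthy 3.

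No marker of inflammation passed, and the intervals were wide. CXCL8, which draws neutrophils, read 9.99, 9.04, 9.06, 10.30, 11.64 and 11.50 in endometritis, against 11.78, 10.85, 10.19, 10.18, 10.41 and 10.10 in healthy (-0.33 ± 0.45, interval -1.28 to 0.62). The groups overlapped over most of their range. IL1B, an inflammatory cytokine, read 3.58, 3.04, 3.41, 4.34, 8.49 and 7.60 in endometritis, against 7.82, 6.47, 5.26, 6.92, 7.40 and 3.86 in healthy (-1.21 ± 0.99). Endometritis 5 and 6 and 5 of the healthy arrays were high. TNF differed by -0.59 ± 0.52, and IL6 stood near the floor with 2.62 ± 0.23 in endometritis and 2.51 ± 0.02 in healthy (SD, n = 6 each). CCL4, a chemokine for monocytes and T cells, was the 1 of 27 cytokine and chemokine genes with an unadjusted p under 0.05 (-1.78 ± 0.82, limma adjusted p = 0.925). That is 3.7% of the list, near the 3.58% of all genes, and CCL4 differed by -1.08 without endometritis 3. The whole list had a median of -0.08, between -0.19 without endometritis 6 and -0.03 without endometritis 3, and over the other settings between -0.42 with the GAPDH covariate and 0.08 after scaling to the hybridisation controls. The receptors TLR2 and TLR4 differed by 0.46 ± 0.59 and 0.18 ± 0.69. Of the acute phase and antimicrobial proteins, HP differed by -1.10 ± 0.71, and by -0.74 without healthy 1. All 6 endometritis arrays lay below the healthy mean for HP, as they did for 15.3% of all genes. LTF differed by -1.01 ± 0.60 with 1 of its 2 probe sets in that direction, and SAA3 by -0.09 ± 0.60 (interval -1.37 to 1.18). The milk proteins had intervals of similar width, from -1.60 to 1.22 for CSN2, from -1.39 to 1.24 for CSN3 and from -1.82 to 1.30 for LALBA.

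None of 14 measures of the arrays themselves passed the test between the groups (exact two-sided permutation tests over 924 arrangements, adjusted p = 0.652 for each). The number of probe sets above 4 was 5595 ± 320.4 in endometritis and 5480 ± 295.4 in healthy (SD, n = 6 each). Endometritis 3 and healthy 3 stood apart together, with 5024 and 4925 such probe sets. The first principal component of the 12 arrays held 49.7% of the variance and did not separate the groups (11.5 ± 49.1 in endometritis and -11.5 ± 45.2 in healthy, exact permutation p = 0.403). Median correlations were 0.929 among endometritis arrays and 0.946 among healthy arrays, and 0.940 between the groups.

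These 18 arrays could show large differences only. Among the 12782 probe sets with a mean above the median of all values, the 95% interval of a difference reached 0.51 log2 units to either side in the median case. It lay within 1 unit of zero, a 2-fold difference, for 71.1% of them and within 0.5 for 31.1%. A probe set that passed alone would have needed a t of 7.31, and the largest, ASB11, had 7.23. That corresponds to a difference of 1.74 in the median case, 2.27 for signals of 4 to 6 and 2.504 for signals above 8. If 500 probe sets had passed together, 0.96 would have been enough in the median case. The medians of -0.50 for oxidative phosphorylation and -0.33 for the mitochondrial ribosome and import are below these sizes for a single gene. At the floor the scale is compressed: 1555 genes were at or under the median on all 12 arrays, and narrow intervals there say little about RNA levels.

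**Figure D5:**
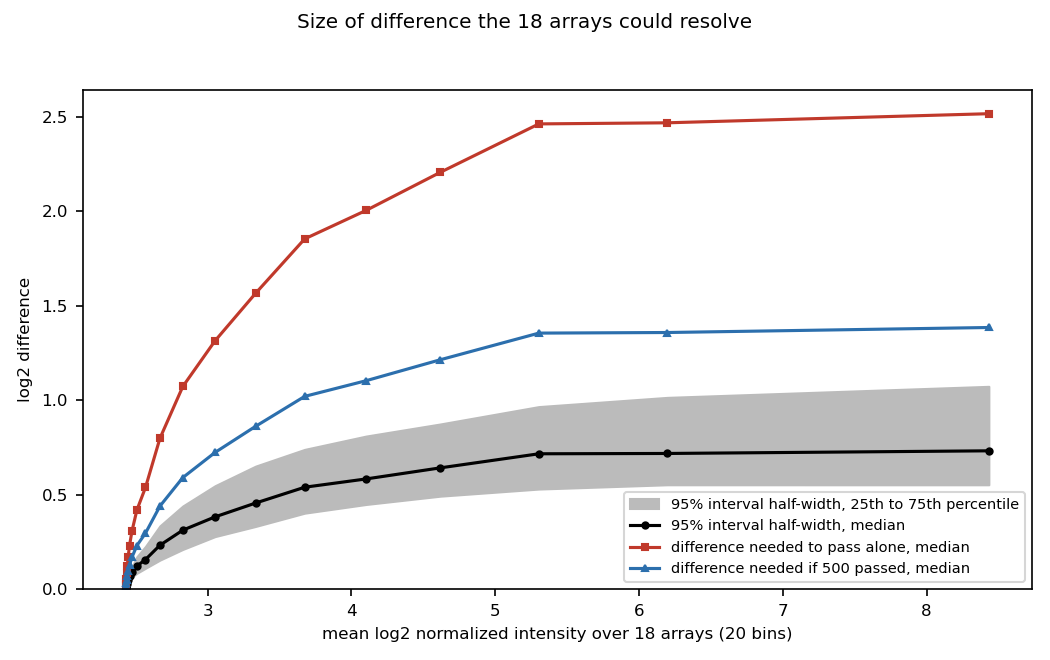
Half-width of the 95% interval (black, median; grey, 25th to 75th percentile) and the log2 difference needed to pass alone (red) or with 500 probe sets passing (blue), against mean signal over 18 arrays in 20 bins. All rise from the floor of the scale and level off above a signal of about 5.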

How the data were processed

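Labelled RNA from milk cells was hybridised to Affymetrix bovine arrays after 3′ amplification, per the labels' protocols. The authors deposited 1 table of log2 normalized intensity. RMA, GCRMA and limma appear in the submitters' processing notes, without versions or roles; neither the method behind the values nor the base of the logarithm is stated there, and log2 values of the GCRMA kind were assumed from the floor and range. Raw scans were not used here. Of 24128 probe sets, 112 are controls; the platform annotation gave 13292 of the rest 1 symbol, 86 several and 10638 none, and symbols were checked against the RefSeq gene table of ARS-UCD2.0 for names only. For each of 9155 genes, the probe set brightest on average over the 18 arrays was used.

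Differences came from limma 3.58.1 in R 4.3.3 (lmFit, eBayes, 1 term per group, all 18 arrays, two-sided, Benjamini-Hochberg). The fit was tried on simulated data, with differences far larger than the list medians here and noise independent between probe sets. That trial says nothing about small shifts shared by many genes. P-values set each difference against the spread between cows within groups, estimated from all 18 arrays, mastitis included. The number of arrays limits the precision. The 46 gene lists and the genes of interest were chosen with earlier results of these data known, and lists are described by counts and medians with no test. The rule for named genes took the 10 smallest p in each direction, the 4 smallest of every list, and 24 fixed genes, 207 in all; the text prints part of them and marks those outside the rule. A list score is the mean of members centred over arrays. Alternatives covered the scaling, a filter on dim probe sets, array weights, the variance model, covariates and each array left out.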

Additional observations from a re-analysis of the deposited data

Results flagged for a closer look

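Of 190 sets of 6 arrays examined (genes printed above, 12 list scores and 14 array measures, in each group), 23 had 1 array far from its nearest neighbour, with a gap, as a share of the group's range, above Dixon's 95% critical value; chance gives about 1 in 20. No explanation was tested for any of them.

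Endometritis 5 was the lowest endometritis array for CSN2 (12.0, next 13.2), CSN3 (12.8), LALBA (11.6) and ELF5 (6.13), and the highest for TNF (5.89). Endometritis 6 was the highest for CXCR1, at 8.28, endometritis 1 for RRAD, at 4.45, and endometritis 3 was the lowest for CTR9, at 6.73, and the highest for the actin 3′ minus 5′ difference, at 0.0803.

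Healthy 3 was the highest healthy array for the hybridisation controls (9.42, next 8.59), the dap (9.001), lys (5.25), phe (6.18) and thr (5.85) poly-A controls, and the number of probe sets above the median of all values (12710). Healthy 6 was the lowest for LTF, at 6.00, and LALBA, at 13.02, and the highest for KLRK1, at 3.29. Healthy 1 was the highest for S100A8, at 9.73, and for the actin difference, at 0.0964. Healthy 5 was the highest for MRPS17, at 5.99, and the lowest for ACSL3, at 3.46. Healthy 2 was the highest for IL6, at 2.54, close to the floor of the scale.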

How the results depend on the processing

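Over the alternatives, 1649 of 1690 values of the 65 genes printed by the rule kept their direction and their side of the threshold. At an adjusted p under 0.1 limma called 1 probe set and 1 gene. Probe sets called were 0 in the report and 1, ASB11, without dim probe sets, with arrays centred on brighter probe sets, scaled to the hybridisation controls, with array weights, with a trend and robust variance, and 0 to 1 with each array left out; the mean of all probe sets gave the same 1 among printed genes. Its difference kept its sign throughout, and its adjusted p over probe sets ran from 4.48e-06 to 0.518. Genes called fell to 0 with 12 arrays alone, with the GAPDH covariate, with the neutrophil and mammary scores, and for 2 alternatives chosen after seeing the data (the macrophage and T cell scores; without endometritis 3 and healthy 3 together), and ran from 0 to 6 with each array left out; the 6, without healthy 6, were ASB11, CTR9, GTPBP4, MYBPC1, RRAD and SPINK4. Title numbers above 120 alone, also chosen after seeing the data, gave 4 probe sets and 4 genes.

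The share of probe sets above zero was 49.4%, and 56.6% without dim probe sets, 26.4% centred, 89.0% scaled to the hybridisation controls, 47.1% with the GAPDH covariate, 51.8% with the neutrophil and mammary scores, 46.7% without endometritis 3 and healthy 3, 52.2% with the macrophage and T cell scores, 52.2% among title numbers above 120, and 45.8% to 56.4% with each array left out. Oxidative phosphorylation members lower at an unadjusted p under 0.05 numbered 28, and 44 with 12 arrays, 1 scaled to the controls, 15 with the title number as a term, 12 with the GAPDH covariate, 48 with the neutrophil and mammary scores, and 15 to 30 with each array left out. For the mitochondrial ribosome and import the number was 10, and 19, 21 (centred), 18 (quantile normalization), 0 (controls), 16 (array weights), 3 (title number), 3 (GAPDH), 29 (neutrophil and mammary scores), 6 (title numbers above 120), and 3 to 17 with each array left out. Over the same settings the share of all genes lower at that threshold ran from 0.36% to 6.28%, and was 3.58% in the report. The endoplasmic reticulum median was 0.24 with the neutrophil and mammary scores, 0.23 among title numbers above 120, and 0.23 to 0.56 with each array left out.

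The sign turned for 10 genes, whose differences in the report ran from -0.55 (CXCR1) to 0.46 (TLR2). Scaled to the controls, SAA3 was 0.0695 and CSN3 0.0912. With the title number TLR4 was -0.0557. With the GAPDH covariate TLR2, TLR4, CD14 and CD68 were -0.107, -0.537, -0.0967 and -0.624. With the neutrophil and mammary scores SAA3, CXCR1, CSN2, CSN3 and LALBA were 0.326, 0.148, 0.350, 0.427 and 0.328. With the macrophage and T cell scores SAA3, CSN2, CSN3, LALBA and CD3E were 0.133, 0.116, 0.227, 0.0643 and -0.0873, and without endometritis 3 and healthy 3 SAA3 was 0.0847. With each array left out, TLR4 ran from -0.204 to 0.557, CD14 from -0.0870 to 0.671, CD68 from -0.0686 to 0.806, SAA3 from -0.507 to 0.172, CSN2 from -0.268 to 0.0359, CSN3 from -0.154 to 0.121, LALBA from -0.347 to 0.0447 and CD3E from -0.105 to 0.603. The cause was not tested. No paired analysis was possible because the labels carry no replicate numbers shared between the groups. No alternative was left out.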

Other observations

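Several further gene groups had small medians with 0 members called after adjustment. Of all genes, 48.9% lay above zero and 48.5% below. Leukocyte adhesion and migration genes lay above zero in 19 of 22 cases (median 0.21), glycolysis and hypoxia genes in 25 of 32 (0.19), lysosome genes in 31 of 44 (0.13) and cell cycle genes in 31 of 38 (0.07). At an unadjusted p under 0.05, 0 members of these lists were higher, against 1.86% of all genes. Their scores overlapped between the groups. The cell cycle score was 1.15 on endometritis 5 and between -0.33 and 0.07 on the other endometritis arrays. The lysosome score ran from -1.05 to 1.44 in endometritis and from -1.015 to 1.04 in healthy. Antimicrobial and acute phase proteins lay below zero in 22 of 28 cases (median -0.12) and proteasome subunits in 22 of 32 (-0.12), where PSMA7, a subunit of the core particle, differed by -0.30 ± 0.13. Of the 28 antimicrobial and acute phase genes, 9 stood at or under the median of all values on all 12 arrays. At an unadjusted p under 0.05, 1 of the 28 was higher and 1 lower (3.57% each, against 1.86% and 3.58% of all genes). Interferon response genes stood at a median of 0.05 in endometritis against healthy, while mastitis arrays stood 2.66 above the same healthy arrays. SPINK4, a protease inhibitor, was near the floor in endometritis and 3.94 ± 1.04 (SD, n = 6) in healthy, a difference of -1.38 ± 0.34. ATP6V1F, a subunit of the lysosomal proton pump, averaged 7.81 ± 0.50 in endometritis and 8.46 ± 0.32 in healthy, with 1 of 14 pump subunits lower at an unadjusted p under 0.05 (7.14%, against 3.58% of all genes).

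Endometritis values lay wholly below the healthy ones for 22 of the 9155 genes (0.24%), all looked up after their values were seen. Among the 1421 genes with a mean above 6 there were 11 such genes. The 22 genes held 6 of the 74 measured for oxidative phosphorylation and 2 of the 82 for the mitochondrial ribosome and import. Beside ASB11 and POLR2J, the others included POLR2I, another small polymerase subunit (-0.74 ± 0.23), NEDD8, a ubiquitin-like modifier (-0.67 ± 0.22), PFDN1, a prefoldin subunit (-0.73 ± 0.23), ATOX1, a copper chaperone (-0.96 ± 0.48), and CMC2, of complex IV assembly (-0.97 ± 0.37). Among the 5 wholly higher (0.0546% of the 9155 genes), SEC23IP, a partner of the COPII coat, averaged 5.74 ± 0.20 in endometritis and 5.13 ± 0.29 in healthy (SD, n = 6 each).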
